A study of Mus musculus with 6 samples.

Results

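The 10 genes described here encode interferon-inducible GTPases of the mouse. They are the guanylate-binding proteins (GBPs) Gbp2, Gbp3, Gbp4, Gbp5, Gbp6, Gbp7, Gbp8 and Gbp9 and the immunity-related GTPases (IRGs) Igtp and Irgm1. They were taken from a list of gene symbols with no rule on their values, but the list was chosen with earlier results of these data known. The genes were found by matching the Ensembl identifiers of the count files to GENCODE vM21. All 10 were among the 46983 genes of the files, and all 10 passed the filter on low counts.

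The libraries held RNA depleted of ribosomal RNA from naive CD4 T cells of male mice. The cells were sorted from lymph nodes by surface markers of naive CD4 T cells, among them TCRb+, CD4+ and CD44-, and as DAPI-. Both groups carried floxed Cmtr1 alleles: the 2 control libraries were Cmtr1 fl/fl CD4cre - and the 4 libraries labelled Cmtr1 cKO were Cmtr1 fl/fl CD4cre +. CD4-Cre acts throughout the T lineage once thymocytes turn on the Cd4 promoter, so the deletion predates the naive state, and no other treatment or agent is named. Cmtr1 encodes an enzyme that adds a methyl group to the ribose next to the mRNA cap. The sources used here do not give the ages of the mice. Nothing in the labels ties the libraries of a group to separate mice, and p-values therefore reflect only sample-to-sample spread, which may be technical.

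The libraries held 9513874 to 11949838 gene counts. Among reads mapped to a single place, those outside annotated exons made up 37.2% and 34.0% in controls 1 and 2, and 52.3%, 51.6%, 46.7% and 38.0% in Cmtr1 cKO 1 to 4. Cmtr1 itself was at 11.2 and 11.4 CPM (counts scaled to library size) in the controls, against 16.01, 19.8, 14.6 and 7.57 CPM in Cmtr1 cKO 1 to 4 (log2 fold change 0.36 ± 0.31 SE, edgeR adjusted p = 0.461). The deleted exon is not named and the count covers the whole gene, so it does not check the genotype labels. All 11 markers of naive CD4 T cells were detected and passed the filter. Of these, 2 were called lower in the Cmtr1 cKO libraries, Thy1 (-0.54 on the log2 scale, edgeR adjusted p = 0.0013) and Ccr7 (-0.36, adjusted p = 0.0433), and none higher. Thy1 was called in all 15 alternatives, while Ccr7 lost its call when any library but Cmtr1 cKO 4 was left out (-0.36 to -0.30), on unstranded counts (-0.37, adjusted p = 0.0582) and with the reads outside exons as a covariate (-0.10, adjusted p = 0.525). Their part in the members' levels was not tested. The 5 NK cell markers summed to 0.529 to 1.40 CPM per library, and none passed the filter.

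GBPs are large GTPases of the dynamin superfamily, and IRGs are smaller ones. Interferon-γ (IFN-γ), and for many of them type I interferon, turns their genes on through factors such as IRF1, after which the proteins coat the vacuoles and membranes of intracellular bacteria and parasites. In the mouse the GBP genes lie in clusters on chromosomes 3 and 5, and most IRG genes lie on chromosome 11. Igtp and Irgm1 belong to the regulatory IRGs, which hold the effector IRGs inactive on the cell's own membranes.

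In GENCODE vM21 (GRCm38), Gbp5, Gbp7, Gbp3 and Gbp2 lie in this order on the plus strand of chromosome 3, from 142493978 to 142638008. Gbp8, Gbp9, Gbp4 and Gbp6 lie on the minus strand of chromosome 5, from 105014150 to 105293698. Gbp4, Gbp8 and Gbp9 share a first exon: 61, 61 and 60 of their exon bases overlap one another on the same strand, with gene ends at 105139586, 105139540 and 105139539. On chromosome 11, Igtp spans 58199556 to 58207591 on the plus strand and Irgm1 spans 48861968 to 48871683 on the minus strand.

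The promoters are shown because interferon acts on these genes through short elements close to the start. RefSeq (GRCm38.p6) gave a promoter, from 250 bases before to 50 bases after the start, for Gbp2, Gbp3, Gbp5, Gbp7, Igtp and Irgm1, and Gbp4, Gbp6, Gbp8 and Gbp9 are named only. Both strands were searched for GAAANNGAAA, the core of an interferon-stimulated response element, and for TTCNNNGAA, the form of an interferon-γ-activated (GAS) site. Capitals mark every match, each line reads 5′ to 3′ on the gene's strand, and overlapping matches run together. GENCODE vM21 starts some of these genes earlier than RefSeq does, so a stretch before the RefSeq start can lie within the annotated gene. Of the 30 bases shown, 22 lie in an exon of Gbp2, all 30 in an exon of Irgm1, and those of Gbp5 lie inside the gene, with 2 bases of its second stretch in an exon. The stretches of Gbp3, Gbp7 and Igtp lie outside the genes.
Gbp2, chr3:142620594-142620623, plus strand: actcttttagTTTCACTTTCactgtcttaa
Gbp3, chr3:142559989-142560018, plus strand: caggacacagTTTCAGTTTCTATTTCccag
Gbp5, chr3:142496759-142496788, plus strand: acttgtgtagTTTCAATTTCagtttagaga
Gbp5, chr3:142496872-142496901, plus strand: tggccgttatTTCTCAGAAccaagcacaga
Gbp7, chr3:142530156-142530335, plus strand: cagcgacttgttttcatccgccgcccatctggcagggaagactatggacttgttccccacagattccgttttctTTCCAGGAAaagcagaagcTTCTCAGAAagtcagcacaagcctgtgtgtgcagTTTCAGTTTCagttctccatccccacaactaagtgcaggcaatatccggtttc
Igtp, chr11:58199376-58199555, plus strand: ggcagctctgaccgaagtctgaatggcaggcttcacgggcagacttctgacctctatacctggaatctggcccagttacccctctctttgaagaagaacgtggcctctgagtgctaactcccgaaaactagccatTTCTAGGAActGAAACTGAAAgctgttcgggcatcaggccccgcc
Irgm1, chr11:48871431-48871460, minus strand: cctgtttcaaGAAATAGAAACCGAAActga

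GAAANNGAAA was in the promoter of all 6 members with an entry, and in 1131 of 32851 promoters of the RefSeq table (3.44%). Counted from the start, it lay at -59 to -50 in Gbp2, -53 to -44 in Gbp7, -34 to -25 in Igtp and farther out, at -165 to -156, in Gbp5. Gbp3 and Irgm1 each held 2 overlapping matches, and the other start that RefSeq gives for Gbp3 held none. TTCNNNGAA was in the promoters of Gbp5, Gbp7 and Igtp, and in 2726 of all promoters (8.3%). Gbp5 held a further match at -245 to -237, outside the stretches shown. In Igtp the motif ended 2 bases before the other motif, at -45 to -37. Of the 4 chromosome 3 members shown, Gbp2 and Gbp3 held the first motif without the second.

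The GBP genes called on chromosome 5 were higher and the one called on chromosome 3 was lower. In the libraries labelled Cmtr1 cKO, Gbp4, Gbp8 and Gbp9 on chromosome 5 were higher by 1.35-fold, 1.45-fold and 1.32-fold, and Gbp2 on chromosome 3 was lower, at 0.688 of the control level. The other chromosome 3 members Gbp3, Gbp5 and Gbp7, the chromosome 5 member Gbp6, and the IRGs Igtp and Irgm1 did not pass the test. Of the 10 members 3 were thus called higher, where 4.66% of the 12748 genes tested were called higher, and 1 was called lower, where 6.77% were (edgeR quasi-likelihood test, Benjamini-Hochberg adjustment over all genes, adjusted p under 0.05). The values of the groups did not overlap in 4 members that were higher and 1 that was lower, where 18.2% and 20.8% of all genes tested did not overlap in these directions (39.0% in either). The median log2 fold change over the members was 0.17, beside -0.0005 over all genes tested. Leaving out 1 library at a time moved the counts: without control 2 no member was called, without control 1 or Cmtr1 cKO 1, 2 or 3 the calls were 3 higher and 0 lower, and without Cmtr1 cKO 4 they were 3 higher and 3 lower. The median was 0.01 without control 2, 0.38 without control 1 and 0.08 without Cmtr1 cKO 4. Calls over all genes moved as well. With all libraries 1457 of 12748 genes were called, and 744, 663 and 606 without Cmtr1 cKO 1, 2 and 3. Without Cmtr1 cKO 4, 3880 of 12603 genes were called, 1940 in each direction. Without a control only 1 control is left, which limits the calls for all genes. Genes called lower went from 863 to 472, 435 and 384 without Cmtr1 cKO 1, 2 and 3. The changes in the members' lower calls on leaving out a Cmtr1 cKO library thus went with those over all genes. The higher calls did not follow all genes. Genes called higher fell from 594 to 272, 228 and 222 without Cmtr1 cKO 1, 2 and 3, while the members kept 3.

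**Figure D1:**
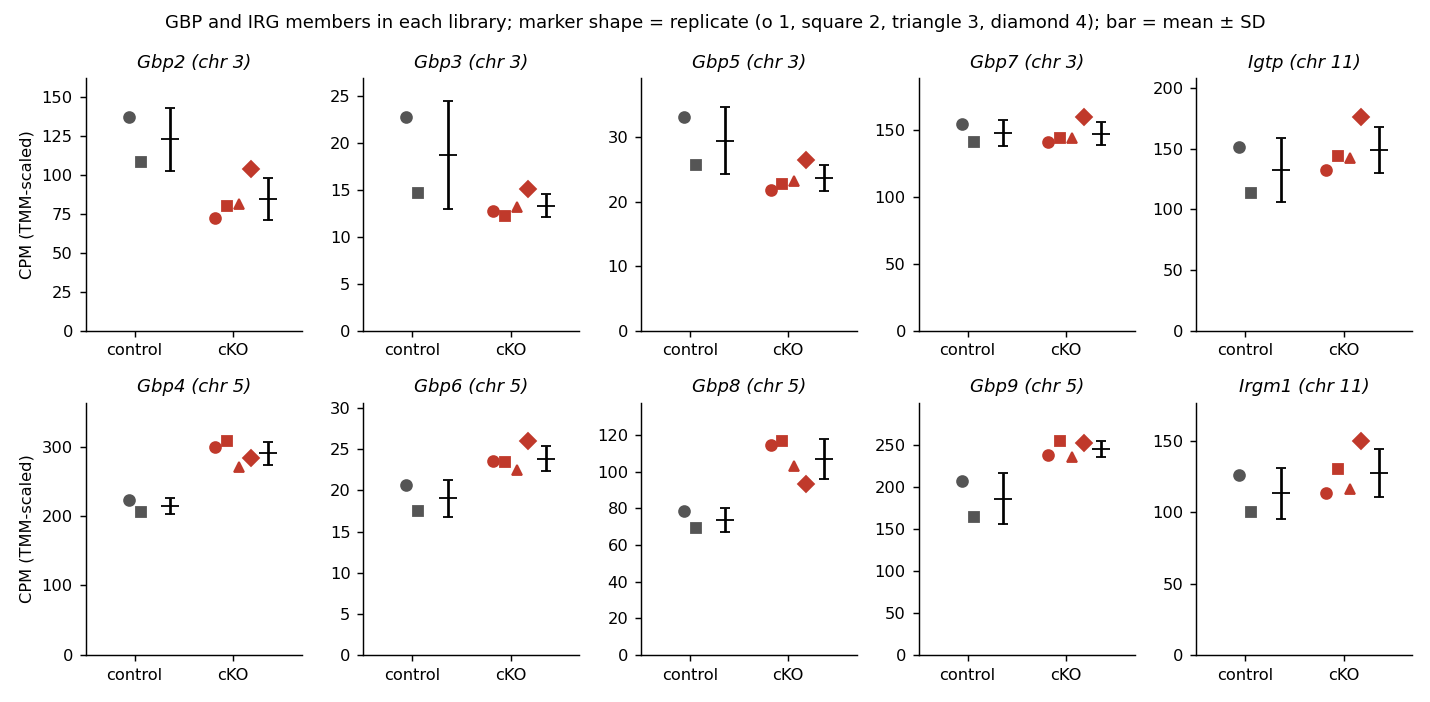
CPM of each member in each of the 6 libraries (y axis from 0, in TMM-scaled CPM), with control in grey and Cmtr1 cKO in red, 1 marker shape per replicate number, and the mean ± SD of each group as a bar. All 4 Cmtr1 cKO libraries lie above both controls for Gbp4, Gbp6, Gbp8 and Gbp9 and below both for Gbp2.

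Gbp4, reported in the mouse to inhibit the transcription factor IRF7, was at 223 and 206 CPM in controls 1 and 2, and at 299, 308, 271 and 283 CPM in Cmtr1 cKO 1 to 4. The groups did not overlap. Its mean rose from 214 ± 12.01 (SD, n = 2) to 290.2 ± 16.4 CPM (SD, n = 4), or 0.44 ± 0.08 on the log2 scale (SE, edgeR adjusted p = 0.00683).

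Gbp8 was at 78.5 and 69.05 CPM in the controls, against 115, 117, 103 and 93.5 CPM in Cmtr1 cKO 1 to 4. The lowest of these, Cmtr1 cKO 4, was still above control 1, the higher control. The log2 fold change was 0.54 ± 0.10 (SE, edgeR adjusted p = 0.0086).

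Gbp9 was at 207 and 164 CPM in the controls, against 238, 254, 235 and 252.5 CPM in Cmtr1 cKO 1 to 4. The 4 Cmtr1 cKO libraries lay closer to one another than the controls did. Gbp9 rose by 0.40 ± 0.09 on the log2 scale (SE, edgeR adjusted p = 0.0219).

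Gbp6 was at 20.6 and 17.5 CPM in the controls, against 23.6, 23.4, 22.5 and 26.0 CPM in Cmtr1 cKO 1 to 4. The groups did not overlap, but the difference of 0.32 ± 0.11 (log2, SE) did not pass the test (edgeR adjusted p = 0.0843). Its count is uncertain: 70.7% of the 50-base stretches of its transcripts also occur in transcripts of other genes. On the same strand 29.0% of its exon bases overlap the main one, Gm43302, which had 0 counts in every library. Reads that fit both genes are counted for neither, so these 0 counts do not show that no reads were lost. For Gbp4, Gbp8 and Gbp9 the share of 50-base stretches found in other genes was 7.78%, 18.1% and 8.05%.

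The 3 higher calls depended on control 2, the library with the lower GBP levels. Without it the log2 fold changes were 0.39 for Gbp4, 0.46 for Gbp8 and 0.25 for Gbp9, with adjusted p = 0.122, 0.140 and 0.229. The percentage of reads outside exons was higher in every Cmtr1 cKO library than in either control. With it as a covariate in the fit, Gbp4 remained higher at 0.34 (adjusted p = 0.007), while Gbp8 had 0.26 (adjusted p = 0.0671) and Gbp9 0.39 (adjusted p = 0.166).

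Among the chromosome 3 members, the levels ran the other way or were level. Gbp2, which is recruited to the vacuole of Toxoplasma gondii in the mouse, was at 137 and 109 CPM in the controls, against 72.5, 80.4, 81.6 and 104 CPM in Cmtr1 cKO 1 to 4. The groups did not overlap, though Cmtr1 cKO 4 came within 5 CPM of control 2. Gbp2 fell by 0.54 ± 0.13 on the log2 scale (SE, edgeR adjusted p = 0.0313).

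That call rested on several libraries. Without control 1 or control 2 the log2 fold change of Gbp2 was -0.35 (adjusted p = 0.257) or -0.68 (adjusted p = 0.0736). Without Cmtr1 cKO 1, 2 or 3 it was -0.47, -0.51 and -0.51 (adjusted p = 0.0667, 0.080 and 0.079), while adding the reads outside exons as a covariate gave -0.25 (adjusted p = 0.607).

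Gbp3 was at 22.8 and 14.7 CPM in the controls, against 12.8, 12.2, 13.2 and 15.1 CPM in Cmtr1 cKO 1 to 4. Control 1 stood above the other 5 libraries, and control 2 lay within the range of the Cmtr1 cKO group (log2 fold change -0.49 ± 0.17 SE, edgeR adjusted p = 0.0787). Gbp5, a GBP tied to inflammasome activation, was at 33.1 and 25.7 CPM in the controls, against 21.85, 22.8, 23.3 and 26.5 CPM in Cmtr1 cKO 1 to 4. The groups overlapped here too, through Cmtr1 cKO 4 and control 2 (-0.32 ± 0.12 SE, adjusted p = 0.108). Without Cmtr1 cKO 4 both were called lower, Gbp3 at -0.56 (adjusted p = 0.0167) and Gbp5 at -0.38 (adjusted p = 0.0195). Without control 1 they had -0.13 and -0.11, and without control 2 Gbp3 had -0.76.

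Gbp7 was at 155 and 141.5 CPM in the controls, against 141.5, 145, 144 and 160.2 CPM in Cmtr1 cKO 1 to 4. Its means of 148 ± 9.5 and 148 ± 8.46 CPM (SD) lay within the spread of each group, with a 95% interval of the log2 fold change from -0.17 to 0.16 (edgeR adjusted p = 0.968). Of its 50-base stretches 12.7% occur in other genes, and 11.3% of its exon bases overlap Gm43802, which had 0 counts. Reads in that overlap fit both genes and are counted for neither.

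Neither IRG among the members passed the test. Igtp was at 151 and 114 CPM in the controls, against 132, 144, 142 and 176 CPM in Cmtr1 cKO 1 to 4. Irgm1 was at 126 and 100.4 CPM in the controls, against 113, 131, 116 and 149.8 CPM in Cmtr1 cKO 1 to 4. In both genes 3 of the 4 Cmtr1 cKO libraries lay between the controls or within 5 CPM of control 1, and Cmtr1 cKO 4 was highest. The log2 fold changes were 0.17 ± 0.13 and 0.17 ± 0.12 (SE, edgeR adjusted p = 0.410 and 0.362), with 95% intervals of -0.12 to 0.45 and -0.10 to 0.44. Without control 2 Igtp had -0.01 and without control 1 0.40, and neither gene was called in any of the 15 alternatives.

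**Figure D2:**
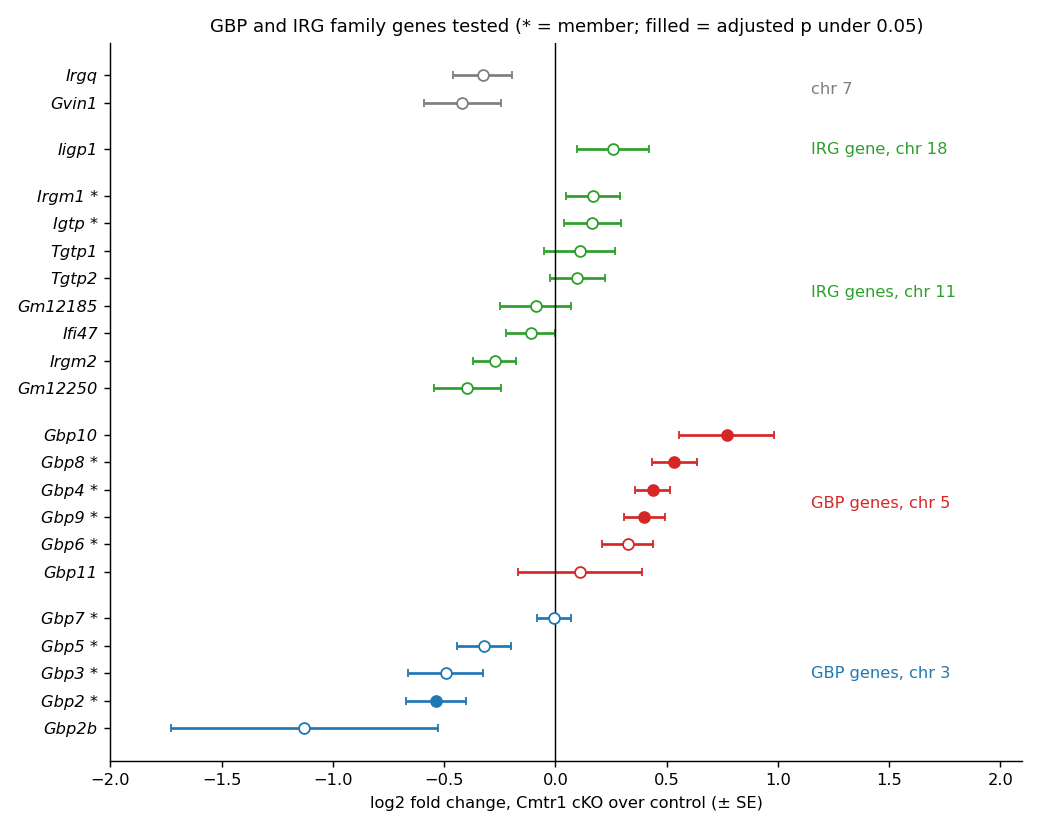
Log2 fold change (x axis, Cmtr1 cKO over control, ± SE) of the 10 members, marked by asterisks, and of 12 other genes of the families that passed the filter, grouped and coloured by chromosome, with filled points for adjusted p under 0.05. The 6 chromosome 5 genes all lie to the right of 0 and the 5 chromosome 3 genes to the left, with Gbp7 next to 0 and above it with upper-quartile scaling.

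Ratios within a library do not depend on the scaling between libraries. The summed CPM of the 4 chromosome 5 members over that of the 4 chromosome 3 members was 1.52 and 1.57 in the controls. It was 2.72, 2.70, 2.41 and 2.14 in Cmtr1 cKO 1 to 4. The controls lay close together and every Cmtr1 cKO library lay above them, with Cmtr1 cKO 4 the closest. These ratios were formed after the members' values were known and are given with no test.

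For single genes the ratio of Gbp9 to Gbp2 was 1.51 in both controls and 3.28, 3.16, 2.88 and 2.42 in Cmtr1 cKO 1 to 4. Gbp4 to Gbp2 was 1.62 and 1.90 in the controls and 4.13, 3.83, 3.32 and 2.72 in Cmtr1 cKO 1 to 4. Gbp8 to Gbp2 was 0.572 and 0.636 in the controls and 1.58, 1.45, 1.27 and 0.898 in Cmtr1 cKO 1 to 4. Within the Cmtr1 cKO group, the libraries with a larger share of reads outside exons had the larger ratios. Cmtr1 cKO 4, with 38.0% of its reads outside exons against 37.2% in control 1, had the lowest ratios of its group, which were above those of both controls. The part of that share in the ratios was not tested.

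**Figure D3:**
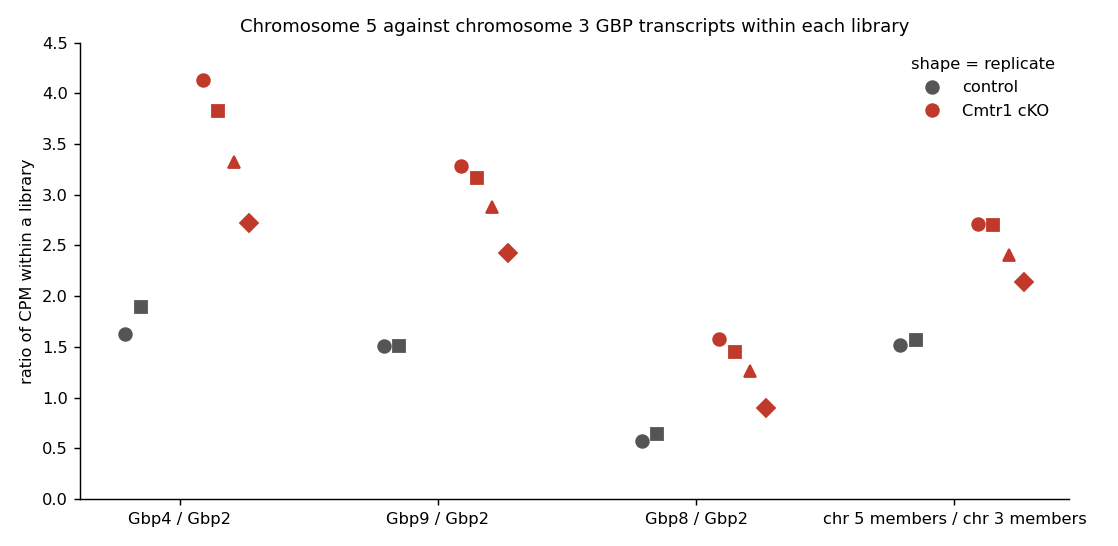
Ratio of CPM within each library (y axis from 0, no unit) for Gbp4, Gbp9 and Gbp8 over Gbp2 and for the summed chromosome 5 members over the summed chromosome 3 members; grey is control, red is Cmtr1 cKO, and shapes are replicate numbers. In each ratio the 4 Cmtr1 cKO libraries lie above both controls.

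The controls differed from each other in the same genes. All 10 members were higher in control 1 than in control 2, against 49.6% of all genes tested, and the median log2 ratio of control 1 to control 2 was 0.33 over the members and -0.002 over all genes. It ranged from 0.11 for Gbp4 to 0.64 for Gbp3. Summed over the members, the controls were at 1154 and 961 CPM and Cmtr1 cKO 1 to 4 at 1170, 1237, 1152 and 1287 CPM. The total of the members' transcripts in a library thus moved less than the make-up of that total. Myeloid markers were also higher in control 1, at 46.6 summed CPM against 26.7 in control 2 and 25.7 to 29.5 in the Cmtr1 cKO libraries. Of the 9 markers 8 were higher in control 1 than in control 2, but only 4 of the 9 passed the filter. Lyz2, a myeloid lysozyme, was at 11.2 CPM in control 1 and 2.33 CPM in control 2. Their part in the members' levels was not tested.

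Compared per kilobase of exon, Igtp was the most abundant member in the controls at 65.6 ± 13.0 RPKM (SD, n = 2). Gbp2 followed at 48.9 ± 8.09, Gbp9 at 35.9 ± 5.87, Gbp4 at 28.6 ± 1.603, Gbp7 at 26.4 ± 1.69, Gbp8 at 21.4 ± 1.94 and Irgm1 at 19.5 ± 3.11 RPKM. Gbp3, Gbp5 and Gbp6 formed a low tier at 5.74 ± 1.77, 4.44 ± 0.79 and 3.20 ± 0.37 RPKM. The place of Gbp6 is uncertain, since 70.7% of its 50-base stretches occur in other genes. Reads that fit more than 1 place or gene are not counted, so its level may be understated. Neighbours whose control ranges overlapped were Gbp4 and Gbp7, Gbp8 and Irgm1, and Gbp3 and Gbp5.

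In the Cmtr1 cKO libraries Igtp was again first at 73.6 ± 9.47 RPKM (SD, n = 4), but Gbp9 at 47.3 ± 1.92 and Gbp4 at 38.7 ± 2.19 stood ahead of Gbp2 at 33.6 ± 5.42 RPKM. Gbp8 came next at 31.1 ± 3.13, then Gbp7 at 26.3 ± 1.51 and Irgm1 at 21.9 ± 2.87 RPKM. From Gbp4 down to Irgm1 each gene's range overlapped that of the next. Gbp3, Gbp6 and Gbp5 stayed the lowest at 4.09 ± 0.39, 4.01 ± 0.25 and 3.56 ± 0.30 RPKM, with ranges that overlapped from each to the next. The level of Gbp6 may be understated here too.

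Of 16 other GBP and IRG family genes 12 passed the filter, 1 of them was called higher and none lower, and their median log2 fold change was -0.10. At an unadjusted p under 0.05, 1 was higher and 4 were lower, and 3933 of all 12748 genes tested passed that limit. DESeq2 also called 1 higher and 0 lower. Without Cmtr1 cKO 4 edgeR called 4 lower, where 1940 of all 12603 genes tested were called lower. The gene called was Gbp10 on chromosome 5, at 8.04 and 5.24 CPM in the controls, against 12.3, 10.8, 8.99 and 13.3 CPM in Cmtr1 cKO 1 to 4 (0.77 ± 0.21 SE, edgeR adjusted p = 0.0405). Its call was lost without control 1, control 2, Cmtr1 cKO 1 or Cmtr1 cKO 2 (1.13, 0.51, 0.73 and 0.80, with adjusted p = 0.0728, 0.312, 0.0817 and 0.0662), and also on unstranded counts (0.76) or with the covariate (0.87). Its count is uncertain, since 84.1% of its 50-base stretches occur in other genes, mainly Gbp6. On the same strand 46.3% of its exon bases overlap Gm43302.

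The remaining GBP genes had few reads or no call. Gbp11, a polymorphic pseudogene on chromosome 5, differed by 0.11 ± 0.28 on the log2 scale (SE, edgeR adjusted p = 0.813). Gbp2b on chromosome 3 had 18 and 18 counts in the controls and 3, 2, 16 and 11 in Cmtr1 cKO 1 to 4. In CPM Cmtr1 cKO 3 lay between the controls, and the difference did not pass the test (-1.13 ± 0.60 SE, adjusted p = 0.225).

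The rest of this list, the other IRG genes and Gvin1, showed no call in either direction. Irgm2, the remaining regulatory IRG, was at 76.9 and 64.9 CPM in the controls, against 56.7, 56.4, 55.9 and 65.7 CPM in Cmtr1 cKO 1 to 4 (-0.27 ± 0.10 SE, edgeR adjusted p = 0.0826). The effector IRGs Iigp1, Tgtp1 and Tgtp2 had log2 fold changes of 0.26, 0.11 and 0.10 (adjusted p = 0.305, 0.673 and 0.623), and 81.2% and 86.6% of the 50-base stretches of Tgtp1 and Tgtp2 occur in other genes. Ifi47 had -0.11, Irgq -0.33, Gm12250 -0.40, Gm12185 -0.09 and Gvin1 -0.42 (adjusted p = 0.527, 0.125, 0.106, 0.742 and 0.126). The count of Gvin1 is uncertain, since 99.2% of its 50-base stretches occur in other genes, mainly Gm4070.

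Upstream of the GTPases, the IFN-γ receptor and signalling list had 10 of 11 genes tested, 1 called lower and none higher. The gene called was Ifngr1, the ligand-binding chain of the receptor, at 109 and 92.3 CPM in the controls, against 75.2, 65.2, 78.3 and 68.3 CPM in Cmtr1 cKO 1 to 4. The groups did not overlap (-0.49 ± 0.09 SE, edgeR adjusted p = 0.00925), and the call was lost without control 1 (-0.35, adjusted p = 0.145). The signalling chain Ifngr2 had -0.06, and the kinases Jak1 and Jak2 -0.07 and 0.07 (adjusted p = 0.683, 0.691 and 0.576). Ifng, the gene of the cytokine, had 0 counts in 4 libraries and 1 count in each of the others, and was below the filter.

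Of the IRF and STAT factors 10 of 11 were tested, with 1 higher and 1 lower. Irf1, which binds the response element of the first motif, was at 291 and 278 CPM in the controls, against 224, 219.5, 235 and 235 CPM in Cmtr1 cKO 1 to 4 (-0.32 ± 0.07 SE, edgeR adjusted p = 0.0158). Irf7, a factor of the type I interferon response, was at 86.3 and 60.4 CPM in the controls, against 102, 109, 99.6 and 121 CPM in Cmtr1 cKO 1 to 4 (0.56 ± 0.13 SE, adjusted p = 0.0239). The groups did not overlap in either gene, with Irf1 lower and Irf7 higher in the Cmtr1 cKO libraries. Irf8 had -0.26 (adjusted p = 0.352). Without control 1, control 2, Cmtr1 cKO 2 or Cmtr1 cKO 3 Irf1 had -0.27, -0.34, -0.30 and -0.32 (adjusted p = 0.156, 0.127, 0.051 and 0.0549), and Irf7 lost its call without control 2 or Cmtr1 cKO 2 and with the covariate (0.34, 0.55 and 0.64, with adjusted p = 0.206, 0.0545 and 0.345), and had 0.85 without control 1.

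Among other IFN-γ targets 22 of 25 were tested, with 1 higher, 1 lower and a median log2 fold change of 0.005. Xaf1, an inhibitor of XIAP, was at 34.97 and 25.1 CPM in the controls, against 54.5, 58.2, 50.04 and 56.7 CPM in Cmtr1 cKO 1 to 4 (0.87 ± 0.12 SE, edgeR adjusted p = 0.00173). Tapbp, which encodes tapasin of the peptide-loading complex, fell by 0.49 ± 0.07 (SE, adjusted p = 0.00188). Both calls held in all 15 alternatives.

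The targets of type I interferon had the largest median of the interferon lists, 0.35, with 5 of 20 higher and 1 lower. Mx2 (1.14, edgeR adjusted p = 0.0273), Isg15 (0.75, adjusted p = 0.0304), Ifit1 (1.05, adjusted p = 0.0313) and Mx1 (1.40, adjusted p = 0.0405) rose, and Ifit2 fell by 0.31 (adjusted p = 0.0282). Mx1 and Mx2 encode dynamin-like antiviral GTPases, and Isg15 a ubiquitin-like modifier. Like the members, 18 of the 20 were higher in control 1 than in control 2. Mx1 was at 8.57 and 2.82 CPM in the controls, against 17.4, 16.5, 10.7 and 16.1 CPM in Cmtr1 cKO 1 to 4. Without control 2 none of these 5 genes was called, and Mx1 had 0.84 (adjusted p = 0.170), Mx2 0.80 (adjusted p = 0.225), Isg15 0.78 (adjusted p = 0.195), Ifit1 0.78 (adjusted p = 0.147) and Ifit2 -0.25 (adjusted p = 0.258). Without Cmtr1 cKO 1 they were not called either, at 1.33, 1.06, 0.74, 1.07 and -0.28 (adjusted p = 0.100, 0.0655, 0.0569, 0.105 and 0.0704). Isg15 and Ifit2 were also lost without control 1 (0.74 and -0.35, adjusted p = 0.176 and 0.124), and Mx1, which had 2.44 without control 1, without Cmtr1 cKO 4 (1.37, adjusted p = 0.0976). Without Cmtr1 cKO 2, Mx1, Mx2, Ifit1 and Ifit2 had 1.36, 1.14, 1.07 and -0.31 (adjusted p = 0.109, 0.059, 0.0986 and 0.0644), and without Cmtr1 cKO 3 Ifit2 had -0.28 (adjusted p = 0.0933). With the covariate Isg15 stayed called, and Mx1, Mx2, Ifit1 and Ifit2 did not (adjusted p = 0.481, 0.345, 0.266 and 0.276). Ifit1 was also not called with no filter on low counts (1.05, adjusted p = 0.175), and Ifit2 had -0.17 with the covariate.

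**Figure D4:**
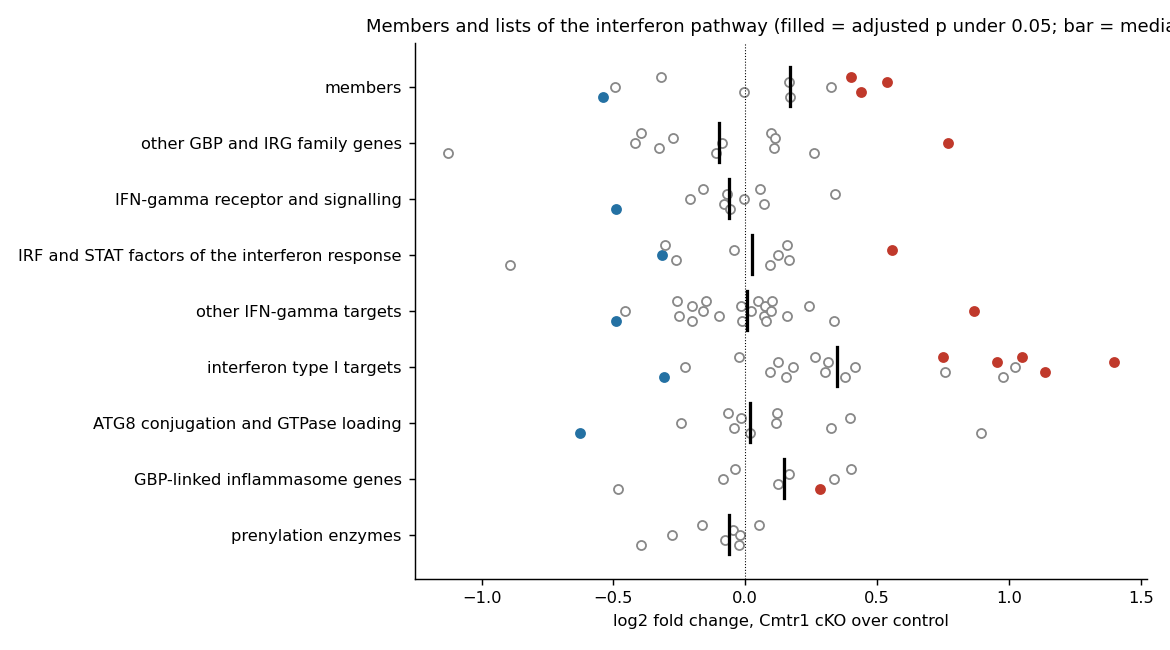
Log2 fold change (x axis, Cmtr1 cKO over control) of each tested gene of the member list, the other family genes and the pathway lists, 1 row per list, with filled points for adjusted p under 0.05 and a bar at each list's median. The type I interferon targets have the median farthest to the right, 0.35.

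The machinery that loads these GTPases on membranes or acts after them showed few calls. Of 11 genes of ATG8 conjugation, which in the mouse directs GBPs and IRGs to vacuoles, 1 was lower and none higher. This was Gabarapl2, a protein of the ATG8 family, at 28.3 and 32.4 CPM in the controls, against 20.6, 18.5, 16.3 and 23.0 CPM in Cmtr1 cKO 1 to 4 (-0.63 ± 0.13 SE, edgeR adjusted p = 0.0141). Its call was lost without control 1, without control 2 or with the covariate (-0.71, -0.52 and -0.42, with adjusted p = 0.0767, 0.193 and 0.141). Of 8 inflammasome genes tested, 1 was higher, the apoptotic protease gene Casp8, at 0.28 ± 0.07 (SE, adjusted p = 0.0309), and not without control 1 or 2 (0.37 and 0.22, adjusted p = 0.0862 and 0.261) or without Cmtr1 cKO 1, 2 or 3 (0.29, 0.27 and 0.29, adjusted p = 0.064, 0.0778 and 0.0778) or with the covariate (0.21, adjusted p = 0.0955). Of 8 prenylation enzymes, which add the lipid anchor that some GBPs carry, none was called by edgeR, and 1 was lower at an unadjusted p under 0.05.

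Markers of other cells moved with the groups. Of the effector and memory T cell markers 5 of 10 passed the filter and 3 were lower: Prf1 (-1.95), Klrd1 (-1.92) and Cd44 (-0.50), with edgeR adjusted p = 4.6e-05, 0.000532 and 0.0160. Their list summed to 177 and 167 CPM in the controls and to 98.5, 97.4, 137 and 119 CPM in Cmtr1 cKO 1 to 4. CD8 T cell markers summed to 36.6 and 35.5 CPM against 22.4 to 27.5 CPM, with Nkg7 at -1.25 (adjusted p = 0.0486), at or below 26 counts in every library. B cell markers summed to 375 and 389.7 CPM against 289 to 329 CPM, with Ighm at -0.35 (adjusted p = 0.0105) and no other B cell marker called. Ighm lost its call without control 1, control 2 or Cmtr1 cKO 3 (-0.35, -0.33 and -0.33, adjusted p = 0.0964, 0.137 and 0.0533), Cd44 without either control (-0.39 and -0.59, adjusted p = 0.180 and 0.0797), and Nkg7 when any library but Cmtr1 cKO 4 was left out (-1.43 to -1.08), with upper-quartile scaling, on unstranded counts and with the covariate (-1.23, -1.27 and -1.26, adjusted p = 0.0518, 0.056 and 0.239). In bulk RNA fewer cells of a type and less RNA per cell cannot be told apart. The part of these cells in the levels of Gbp2 and the other members was not tested.

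The genes outside all lists whose log2 CPM followed the mean log2 CPM of the members most closely were Cox19 (Pearson r = 0.976), Gm11707 (0.975), Nt5c3 (0.971), Gstz1 (0.968) and Gcnt1 (0.968). These values are across the same 6 libraries, which share the members' scaling, and are a description with no p. The mean log2 CPM of the members itself was 6.44 and 6.13 in the controls and 6.29, 6.36, 6.30 and 6.48 in Cmtr1 cKO 1 to 4, so the controls lay farther apart than the Cmtr1 cKO libraries did.

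Between members the same kind of description, over all 6 libraries with the group means left in, sorted the genes largely by chromosome. The fold changes given above enter these r, which are thus no separate evidence of a split by chromosome. Covariation within a group was not examined. Gbp2, Gbp3 and Gbp5 had r of 0.92 to 0.98 with one another, and Gbp4, Gbp6, Gbp8 and Gbp9 had r of 0.77 to 0.97. Across these sets r was negative for all pairs, from -0.84 for Gbp2 and Gbp8 to -0.30 for Gbp3 and Gbp6. Igtp and Irgm1 had r of 0.97, and Gbp7 lay closer to them, with r of 0.87 and 0.83, than to its neighbours on chromosome 3, with r of 0.61 to 0.67.

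**Figure D5:**
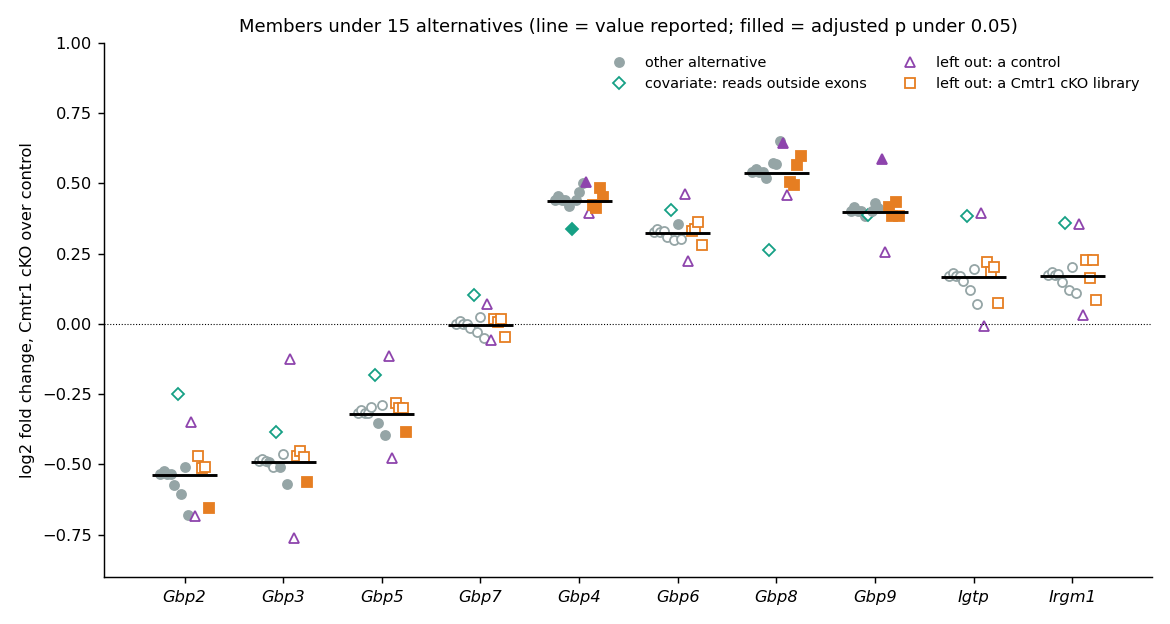
Log2 fold change (y axis, Cmtr1 cKO over control) of each member in the analysis as reported and in each of 15 alternatives, with filled points for adjusted p under 0.05. Gbp4, Gbp6, Gbp8 and Gbp9 stay above 0 and Gbp2, Gbp3 and Gbp5 below 0 in all 15, and Gbp7 lies on both sides.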

How the data were processed

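Naive CD4 T cells gave 6 libraries, 2 control and 4 Cmtr1 cKO, prepared from RNA depleted of ribosomal RNA, per the labels' protocols. The deposited files hold raw counts per gene, and the submitters' processing notes name STAR 2.5.2b, edgeR, mm10 and GRCm38. Which annotation the reads were counted with is not given here. The counts of the column for reverse-stranded reads were used, since it held the most gene counts in every library. In Cmtr1 cKO 3 it held 5.57 times the gene counts of the opposite-strand column, against 18.7 to 22.7 times in the other libraries. The part of this difference in the values of Cmtr1 cKO 3 was not tested. In such files a read counts only if it maps to 1 place and to 1 gene. Of all reads 52.1% to 62.0% lay in rows that name no gene, which were left out.

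Identifiers were matched to GENCODE vM21 (46488 of 46983, 98.9%). Counts were filtered with filterByExpr, scaled by TMM and tested with edgeR 4.0.16 (glmQLFit, robust, and glmQLFTest) in R 4.3.3, with genotype as the only term and Benjamini-Hochberg adjustment over 12748 genes. Calls were made at an adjusted p under 0.05. Standard errors are the log2 fold change over the root of the F statistic, and 95% intervals use the residual degrees of freedom of that test. CPM are scaled by TMM, RPKM are CPM per kilobase of exon, and the log2 CPM have a prior count of 2. In simulated counts for this comparison (12560 genes), changes of 0.5, 1 and 2 on the log2 scale were called in 52.3%, 69.8% and 96.9% of genes, as were 12 of 12367 unchanged genes. These changes were given to 65, 63 and 65 genes, while 1457 of 12748 genes were called in the data. The adjustment depends on the share of genes that change, so these rates need not hold for the data. With 2 controls, small differences can still go uncalled.

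All members and all other tested genes of the families are named, with, from each pathway list, the receptor and factor genes set by the rule and up to 4 genes called in each direction; the calls among the cell type markers are named besides. Of the genes set by the rule, 1 is not reported here. The members and lists were chosen with earlier results of these data known. The 15 alternatives were RLE and upper-quartile scaling, DESeq2 1.42.0, no filter, unstranded counts, a covariate for the share of reads outside exons, voom with quality weights (limma 3.58.1), protein-coding genes only, the replicate number as a block, and each library left out. For genes other than the members these were chosen after seeing the data.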

Additional observations from a re-analysis of the deposited data

Results flagged for a closer look

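In Cmtr1 cKO 4 a total of 5 genes of the families stood above the other 3 Cmtr1 cKO libraries by a gap that, as a share of the group's range, passes Dixon's 95% limit for 4 samples. Gbp7 was at 160 CPM there against 142 to 145 CPM in the others (gap 0.832 of the range). Irgm2 was at 65.7 CPM against 55.9 to 56.7 CPM (0.92). The effector IRGs Tgtp1 and Tgtp2 were at 118 CPM against 80.6 to 82.7 CPM (0.944) and at 140 CPM against 102 to 108 CPM (0.845). Gm12250 was at 34.3 CPM against 23.1 to 24.6 CPM (0.861). Of 22 family genes examined, chance flags about 1 in 20, and these genes are not independent. All 5 values lie in the Cmtr1 cKO library with the smallest share of reads outside exons, 38.0%, and its part in them was not tested.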

How the results depend on the processing

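Gbp4, Gbp8 and Gbp9 kept their direction in all 15 alternatives and were called in 14, 13 and 13 of them, and Gbp2 kept its direction in 15 and was called in 9. Leaving out 1 library at a time gave 193 to 3880 genes called, 0 to 3 members higher, 0 to 3 members lower, 0 to 1 other family genes higher and 0 to 4 lower, and a member median of 0.0106 to 0.375. The 1457 genes called became 2272 with no filter, 666 with the covariate and 3139 with voom. Members called lower were then 2, 0 and 3, and members called higher with the covariate 1. Other family genes lower were 2 with no filter and 3 with voom. Other family genes higher were 0 on unstranded counts and with the covariate. Over all genes 1105 of 24952 were called lower with no filter, 346 of 12748 with the covariate and 1666 of 12748 with voom. With the covariate 320 genes were called higher. Gbp6 was called with protein-coding genes only (adjusted p = 0.0498). Of all calls 40.8% were higher, and 51.4% with no filter.

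With the replicate number as a block 4842 of 12748 genes were called, 2448 of them lower, with 3 members and 6 other family genes lower. The groups share only 2 numbers, and same-numbered libraries deviated from their group means with correlations of 0.125 and -0.131, so the numbers do not pair the libraries. The block turned Tgtp1 to -0.052 and Tgtp2 to -0.00269.

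The remaining changes of sign were in genes that were not called. Gbp7 had 0.00943 with upper-quartile scaling, 0.103 with the covariate, 0.025 with protein-coding genes only, and -0.0566 to 0.0713 with a library left out. With the covariate Gbp11 had -0.521, Ifi47 0.169, Jak1 0.157, Irf8 0.137 and Cmtr1 -0.647. With a library left out, the range was -0.00937 to 0.396 for Igtp, -0.289 to 0.736 for Gbp11, -0.0464 to 0.262 for Tgtp1, -0.0219 to 0.2 for Tgtp2, -0.297 to 0.195 for Gm12185, -0.145 to 0.0593 for Ifngr2, -0.129 to 0.00403 for Jak1 and -0.0249 to 0.197 for Jak2. The cause of these changes was not tested.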
